A study of Homo sapiens with 8 samples.

Results

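The genes that encode RNA polymerase II, the Mediator complex, the general transcription factors and a small set of elongation factors were followed in MDA-MB-231 cells, a mesenchymal triple-negative breast cancer line, after knockdown of the RNA-editing enzyme ADAR1. Members were chosen by gene symbol: POLR2A to POLR2L, every MED gene, every GTF2A to GTF2H gene, every TAF gene, and TBP, CDK7, CDK9, CCNT1, SUPT5H and SUPT6H. The near-identical copies GTF2H2, GTF2H2C and GTF2H2C_2 were left out. This gave 84 members of the 19892 genes listed. The study had 4 groups of 2 libraries each, all from this line: ADAR1 siRNA Input, control siRNA Input, ADAR1 siRNA Ribo-seq and control siRNA Ribo-seq. Input is RNA-seq of gel-purified RNA fragments, and Ribo-seq is sequencing of ribosome-footprint-sized RNA from the same kind of lysate, so the design asks how RNA, footprints and their ratio differ when ADAR1 is knocked down. How long after transfection cells were taken, and the siRNA's sequence, are not stated in the labels.

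RNA polymerase II makes messenger RNA and is built from own subunits and from subunits it shares with RNA polymerases I and III. TFIID, made of TBP and the TBP-associated factors (TAFs), marks the promoter; TFIIA and TFIIB steady it; TFIIF brings in the polymerase; TFIIE and TFIIH open the DNA and phosphorylate the polymerase tail. Mediator links activators to this assembly, and the kinase CDK9 with cyclin T1 and the factor SPT5 carry the polymerase from pausing into elongation. Most of these genes are expressed in nearly all cell types.

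Total estimated counts were 16364576 and 17153716 in ADAR1 siRNA Input and 15732757 and 16819821 in control Input, and 10492223 to 14875465 in the 4 Ribo-seq libraries. The members held 0.534% to 0.599% of these counts. ADAR, which encodes ADAR1, stood at 14.8 and 30.6 TPM (a level scaled to transcript length and library) in ADAR1 siRNA Input, against 106.2 and 110.2 TPM in control Input, a log2 fold change of -2.26 ± 0.32 (SE, n = 2 each; edgeR adjusted p = 0.0527). Footprints of ADAR were 1.55 and 8.41 TPM after ADAR1 siRNA and 19.1 and 20.3 TPM in control Ribo-seq, and fell by 2.04 ± 0.47 on the log2 scale (edgeR adjusted p = 0.0485). The 6 markers of the line (VIM, CD44, CAV1, AXL, MSN, ANXA1) summed to 8840 to 8986 TPM after ADAR1 siRNA and 8284 to 8314 TPM in control Input. ESR1, PGR and CDH1 were under 1 TPM in all libraries. For other cells, 3 immune markers summed to 0.158 to 0.377 TPM after ADAR1 siRNA and 0.214 to 0.479 TPM in control Input. The sums were 2.71 to 3.19 and 2.82 to 4.41 TPM for 3 endothelial markers. For 3 fibroblast markers (ACTA2, COL1A1, PDGFRB) they were 8.16 to 10.2 and 7.0 to 8.06 TPM, so these were low but not absent. ERBB2 and EPCAM, listed as low in the line, were at 29.5 to 35.5 and 13.3 to 21.0 TPM over the 4 Input libraries. The labels do not say whether the 2 libraries of a group are separate cultures, and the spread behind each p-value is that between libraries, which may be technical; in bulk RNA, fewer cells of a kind and less RNA per cell cannot be told apart. In RefSeq's GRCh38.p14 annotation 47 members overlap another gene, 25 of them a protein-coding one, judged on whole gene spans with introns. No source used here states whether counting used strand. Whether the exons of such pairs overlap was not checked, and where they do, their reads cannot be told apart. MED17 overlaps a small nucleolar RNA gene and a pseudogene, TAF11 overlaps BLTP3A, TAF10 ILK, TAF6 AP4M1 and CNPY4, TAF1C DNAAF1, TAF6L TMEM223, CDK7 CCDC125, POLR2B IGFBP7 and POLR2I OVOL3; only some of the other pairs are named below.

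Promoter sequence is shown for the pair of members whose footprints passed the test, TAF12 and MED17, and for POLR2A, the catalytic subunit of the polymerase. The windows are the 120 bases before the RefSeq transcript start in GRCh38.p14, 5′ to 3′ on the gene's strand. TAF12 is chr1:28643068-28643187 on the minus strand, inside the gene's annotated span because another transcript starts farther upstream. MED17 is chr11:93784162-93784281 and POLR2A is chr17:7484246-7484365, both on the plus strand. Capitals mark an ETS site (CCGGAAG, in TAF12 and MED17) or a GC box (GGGCGG, in POLR2A), searched on both strands.
TAF12: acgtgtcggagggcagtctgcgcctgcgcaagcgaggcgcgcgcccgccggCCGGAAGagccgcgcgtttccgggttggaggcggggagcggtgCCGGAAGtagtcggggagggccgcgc
MED17: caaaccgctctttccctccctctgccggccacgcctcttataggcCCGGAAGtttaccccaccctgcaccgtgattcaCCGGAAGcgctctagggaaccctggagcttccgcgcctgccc
POLR2A: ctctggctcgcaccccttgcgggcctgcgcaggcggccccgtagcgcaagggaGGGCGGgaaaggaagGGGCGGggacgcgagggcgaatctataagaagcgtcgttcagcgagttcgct
TAF12 and MED17 each held 2 ETS sites and no GC box, while POLR2A held 2 GC boxes and no ETS site. None of the 3 windows held TATAAA or CCAAT. Over the 250 bases before the start, the ETS site was found in 23 of 83 promoters of 67 member genes (27.7%), in 8.52% of all 35116 promoters listed by RefSeq, and in 14.1% of the 15284 promoters of genes tested for RNA. The GC box was in 56.6% of member promoters and 62.8% of promoters of tested genes, CCAAT in 30.1% and 33.0%, and TATAAA in 3.61% and 6.11%. None of these motifs overlaps another in its letters, and a match describes sequence, not binding.

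In ribosome footprints TAF12, a histone-fold subunit of TFIID and SAGA, rose 2.18-fold and MED17, the central scaffold of the Mediator head, fell by 0.86 on the log2 scale. These were 2 of 80 members tested (2.5%), where 3.54% of all 12000 genes tested passed edgeR's adjusted p of 0.05, 1.88% higher and 1.67% lower; 16 members (20%) had an unadjusted p under 0.05, against 24% of all genes, and DESeq2 called 5 members and 8.15% of genes. In RNA 0 of 81 members passed, against 0.253% of 12644 genes; 29 members (35.8%) had an unadjusted p under 0.05, as had 25.3% of all genes, and DESeq2 called 3 members and 3.45% of genes. In translational efficiency, the footprint change beyond the RNA change, 0 of 81 members passed, against 0.0463% of 12953 genes; 11 members (13.6%) had an unadjusted p under 0.05, against 22.7% of all genes, and DESeq2 called 3 members and 7.47% of genes. The median log2 fold change over members and over all genes tested was 0.02 and 0.00 in RNA, -0.02 and 0.05 in footprints, and -0.01 and 0.09 in translational efficiency. Log2 fold changes were above 0 for 43 of 81 members in RNA (50.6% of all genes), 38 of 80 in footprints (54.4%) and 40 of 81 in translational efficiency (57.3%). On the deposited TPM, which edgeR's scaling does not use, the median footprint ratio was -0.12 on the log2 scale over members and -0.05 over all genes, so small differences can have opposite signs on the 2 scales.

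**Figure D1:**
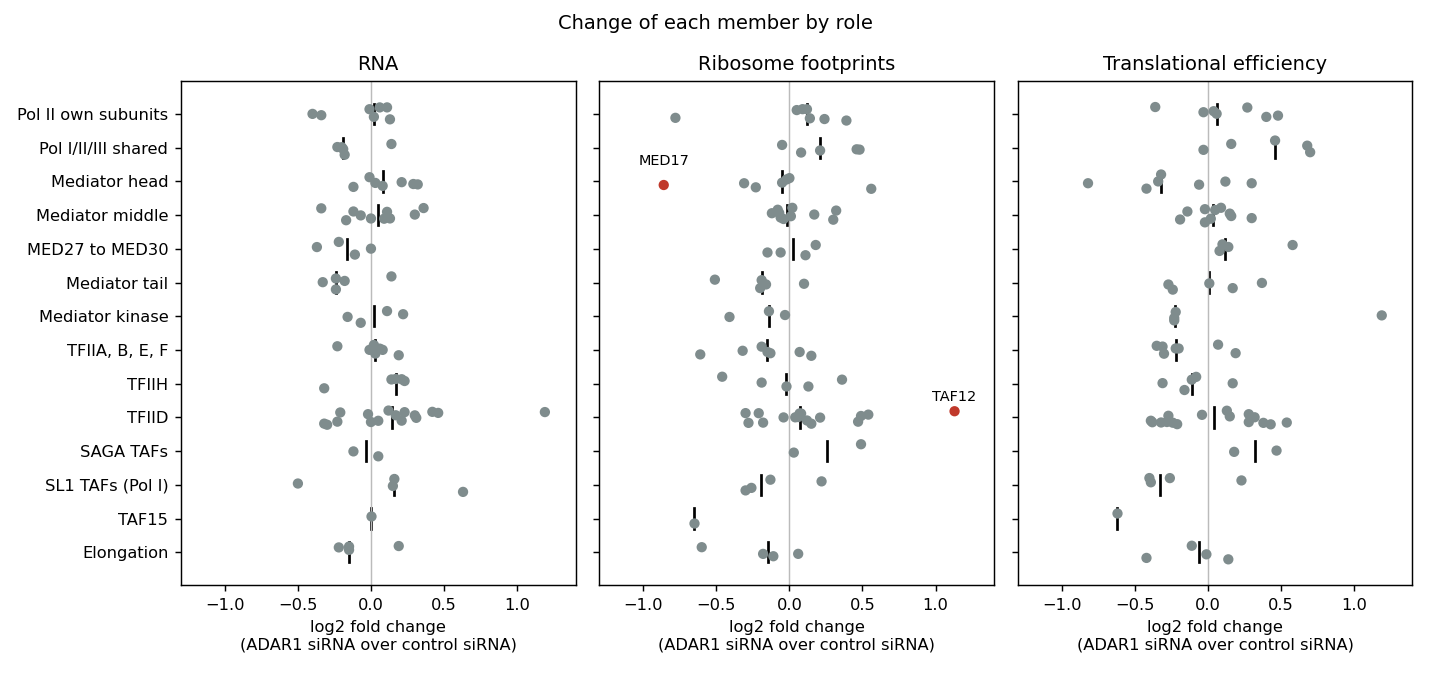
Log2 fold change of every tested member (points) in RNA, footprints and translational efficiency, ADAR1 siRNA over control siRNA, by role, with the median of each role as a bar. The 2 footprint changes past the adjusted p of 0.05 are red (TAF12 at 1.13, MED17 at -0.86), and most other points lie close to 0; the point at 1.19 in the Mediator kinase module is MED12L, with 2 to 11 footprint counts per library.

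Of the 84 members, 3 were too low to test in any comparison. GTF2A1L, a testis relative of a TFIIA subunit, had 0 counts in all 8 libraries. TAF1L and TAF7L, germline relatives of TAF1 and TAF7, had at most 4 and 3 counts. MED12L, a relative of the kinase-module subunit MED12, passed the count filter for RNA and for translational efficiency but not for footprints, where it had 11 and 3 counts after ADAR1 siRNA and 3 and 2 in control libraries.

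Among the 12 polymerase subunits the median log2 fold change was -0.10 in RNA, 0.13 in footprints and 0.22 in translational efficiency. In footprints 10 of 12 lay above 0 (11 with upper-quartile scaling). In each of the 3, 0 of 12 passed the adjusted test, with 2, 4 and 3 at an unadjusted p under 0.05 (25.3%, 24% and 22.7% of all genes). DESeq2 called 1 in each (POLR2A in RNA and footprints, POLR2E in translational efficiency), where it called 3.45%, 8.15% and 7.47% of all genes. Summed over the 12, RNA was 1332 and 1344 TPM after ADAR1 siRNA and 1402 and 1394 TPM in control Input, and footprints were 6127 and 4788 TPM after ADAR1 siRNA and 4517 and 4603 TPM in control Ribo-seq. POLR2L alone made up 4107 and 2968 TPM of the footprints after ADAR1 siRNA and 2755 and 2801 TPM in control libraries, most of each sum.

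POLR2A (chr17:7484366-7514616), which carries the active site and the phosphorylated tail, lay on the other side of 0 from most subunits in footprints. It stood at 130.4 and 108.1 TPM in ADAR1 siRNA Input, against 160.3 and 149.1 TPM in control Input. Its footprints were 5.44 and 8.84 TPM after ADAR1 siRNA and 10.1 and 15.9 TPM in control Ribo-seq. The groups did not overlap in either assay, and the lowest library in footprints was ADAR1 siRNA replicate 1. The log2 fold change was -0.40 ± 0.09 in RNA (edgeR adjusted p = 0.0796) and -0.78 ± 0.23 in footprints (adjusted p = 0.0797), both short of the threshold; DESeq2 gave adjusted p of 0.0103 and 0.0131, and over all alternatives the adjusted p ran from 1.1e-10 to 0.638 in RNA and from 5.97e-08 to 0.683 in footprints. Leaving out 1 library moved the footprint value between -0.45, without control Ribo-seq replicate 2, and -1.12, without ADAR1 siRNA Ribo-seq replicate 2. Translational efficiency differed by -0.36 ± 0.28 on the log2 scale (edgeR adjusted p = 0.479; 0.122 to 0.96 over all alternatives), at -0.05 and -0.64 without these same libraries.

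POLR2B, the second-largest subunit and partner of POLR2A in the active centre, was 192.1 and 178.1 TPM in ADAR1 siRNA Input and 170.0 and 168.1 TPM in control Input, a log2 fold change of 0.11 ± 0.06 (edgeR adjusted p = 0.292). Its footprints were 46.5 and 47.1 TPM after ADAR1 siRNA and 48.0 and 48.5 TPM in control libraries, lower on this scale, whereas edgeR's footprint log2 fold change was 0.05. The 2 largest subunits therefore had RNA on opposite sides of 0 in edgeR's estimates, and their difference was not tested. POLR2G, of the stalk that sits beside the RNA exit, had footprints of 209.9 and 208.5 TPM after ADAR1 siRNA and 176.2 and 164.6 TPM in control libraries (log2 0.39 ± 0.15, edgeR adjusted p = 0.146) and a translational efficiency difference of 0.40 ± 0.17 (adjusted p = 0.203), with RNA groups that overlapped. POLR2C, POLR2D, POLR2I and POLR2J had footprint log2 fold changes of 0.14, 0.09, 0.12 and 0.24; POLR2J has near-identical copies in the genome, so its counts are uncertain.

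The subunits shared by the 3 polymerases had RNA log2 fold changes of -0.23 to 0.14, with 4 of 5 below 0, and footprint log2 fold changes of -0.05 to 0.48, with 4 of 5 above 0 (5 of 5 with upper-quartile scaling). POLR2E had footprints of 307.0 and 248.6 TPM after ADAR1 siRNA and 206.0 and 221.7 TPM in control libraries. Its RNA was 156.5 and 150.0 TPM after ADAR1 siRNA and 180.3 and 165.3 TPM in control Input. Neither pair of groups overlapped, and the 2 assays lay in opposite directions. The log2 fold change was -0.19 ± 0.07 in RNA, 0.48 ± 0.17 in footprints and 0.70 ± 0.22 in translational efficiency (edgeR adjusted p = 0.167, 0.132 and 0.0961), with DESeq2 giving an adjusted p of 0.0303 for the last and the alternatives 0.00643 to 0.378; its gene overlaps ARHGAP45.

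POLR2L, a small zinc-binding subunit, had RNA of 190.3 and 208.7 TPM after ADAR1 siRNA and 219.2 and 233.6 TPM in control Input. The log2 fold change was -0.20 ± 0.09 in RNA and 0.46 ± 0.19 in footprints (edgeR adjusted p = 0.242 and 0.182). Its translational efficiency was 21.6 and 14.2 after ADAR1 siRNA and 12.6 and 12.0 in control cells, a log2 fold change of 0.68 ± 0.27 (edgeR adjusted p = 0.161). ADAR1 siRNA replicate 1 was the highest library for footprints of both POLR2E and POLR2L. POLR2F was 523.0 and 474.7 TPM in footprints after ADAR1 siRNA and 443.4 and 445.2 TPM in control libraries, POLR2H 128.2 and 132.1 against 135.3 and 155.8, and POLR2K 427.2 and 389.6 against 410.6 and 418.6.

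**Figure D2:**
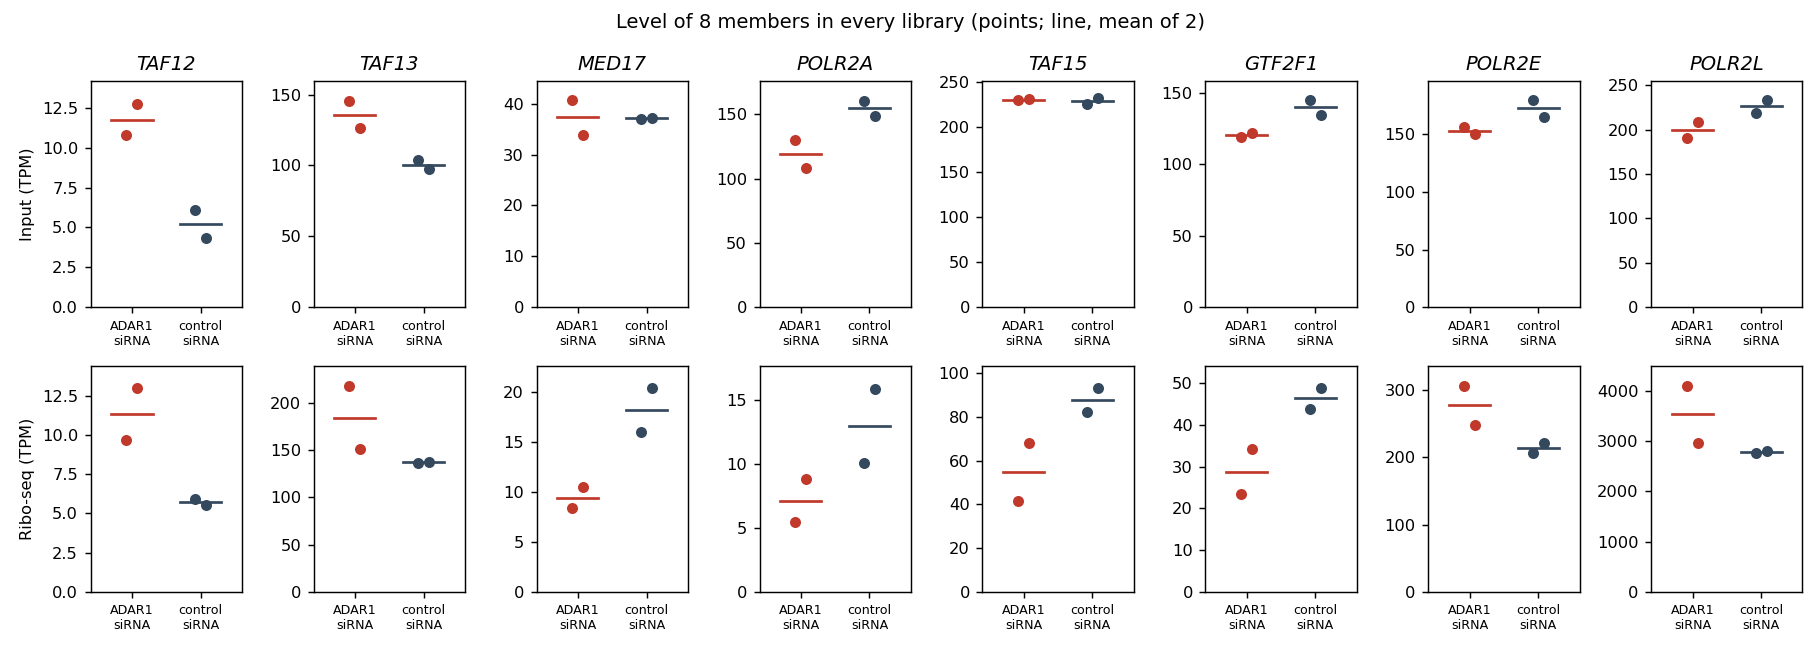
TPM of 8 members in each library (points; the line is the mean of 2), Input above and Ribo-seq below, ADAR1 siRNA in red left of control siRNA in blue, on axes that start at 0. TAF12 is higher after ADAR1 siRNA in both assays, at 9.67 to 13.0 against 4.31 to 6.11 TPM, whereas MED17 and TAF15 libraries are apart in Ribo-seq, with ADAR1 siRNA lower, and overlap in Input; the TAF15 difference did not pass the adjusted test.

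Mediator was measured with 30 genes, and its one called change was in the head module. The median log2 fold change was -0.01 in RNA (13 above 0, 17 below), -0.06 in footprints (9 above, 20 below; 13 and 16 with upper-quartile scaling) and 0.01 in translational efficiency (16 above, 14 below). Summed RNA was 1149 and 1088 TPM after ADAR1 siRNA and 1116 and 1107 TPM in control Input, and summed footprints were 1007 and 1012 TPM after ADAR1 siRNA and 1047 and 1035 TPM in control Ribo-seq. DESeq2 called 0 of the 30 in RNA, 2 in footprints (MED11, MED17) and 1 in translational efficiency (MED17), where it called 3.45%, 8.15% and 7.47% of all genes.

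MED17 (chr11:93784282-93814963), the head subunit that touches most of the others, had footprints of 8.36 and 10.5 TPM after ADAR1 siRNA, from 387 and 453 counts, and 16.0 and 20.4 TPM in control Ribo-seq, from 559 and 605 counts. Its RNA was 40.8 and 33.9 TPM after ADAR1 siRNA and 37.0 and 37.2 TPM in control Input. The footprint groups were apart, with both ADAR1 siRNA libraries low (46.0% and 57.7% of the control mean), while the RNA groups overlapped. Footprints fell by 0.86 ± 0.18 on the log2 scale (edgeR adjusted p = 0.0427), and RNA differed by -0.01 ± 0.08 (adjusted p = 0.954). Translational efficiency was 0.205 and 0.309 after ADAR1 siRNA and 0.432 and 0.548 in control cells, a log2 fold change of -0.82 ± 0.18 that missed the threshold (edgeR adjusted p = 0.0567; DESeq2 0.0071; 0.0071 to 0.34 over all alternatives). The footprint call held in 10 of 11 alternatives and was lost without control Ribo-seq replicate 2, the higher control library, where the log2 fold change was -0.70 (adjusted p = 0.413; 2.63e-06 to 0.413 over all alternatives).

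None of the other 6 head subunits passed edgeR's adjusted test. MED11, which pairs with MED22, had footprints of 104.8 and 113.5 TPM after ADAR1 siRNA and 76.9 and 74.9 TPM in control libraries, the highest log2 fold change among Mediator footprints (0.56 ± 0.15, edgeR adjusted p = 0.065); its gene overlaps CXCL16, which encodes a chemokine. MED20, which sits with MED18 at the movable end of the head, had RNA of 63.7 and 54.5 TPM after ADAR1 siRNA and 51.8 and 49.0 TPM in control Input but footprints of 61.8 and 72.1 against 83.9 and 87.9 TPM. Both sets of groups were apart, in opposite directions. The log2 fold change was 0.21 ± 0.09 in RNA (edgeR adjusted p = 0.193) and -0.23 in footprints, which did not pass either. Translational efficiency of MED20 differed by -0.42 ± 0.15 on the log2 scale (edgeR adjusted p = 0.139). MED20 overlaps BYSL. Footprint groups were also apart, ADAR1 siRNA lower, for MED6 and MED18, as they were for 31.2% of all genes tested. For MED18 they lay close, at 18.6 and 20.3 against 20.4 and 22.7 TPM, and edgeR's log2 fold change was -0.05. Those of MED8 and MED22 overlapped.

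In the middle module, which connects head and tail, the highest RNA log2 fold changes were those of MED21 and MED4. MED21 was 68.0 and 63.9 TPM in ADAR1 siRNA Input and 52.6 and 48.7 TPM in control Input (log2 0.36 ± 0.08, edgeR adjusted p = 0.0767). MED4 was 44.2 and 42.0 TPM in ADAR1 siRNA Input and 33.4 and 35.8 TPM in control Input (log2 0.30 ± 0.09, adjusted p = 0.116). Footprints of both were also higher in both ADAR1 siRNA libraries, with log2 fold changes of 0.32 and 0.30 that did not pass. MED26, the subunit that docks elongation factors, was lower in RNA at 14.5 and 12.1 against 17.3 and 15.8 TPM. MED1, which binds nuclear receptors, was 75.8 and 75.2 TPM in ADAR1 siRNA Input and 70.3 and 68.8 TPM in control Input, with edgeR log2 fold changes of 0.09 ± 0.06 in RNA (adjusted p = 0.405) and -0.07 ± 0.15 in footprints (adjusted p = 0.827). MED14, the backbone of the complex, differed by 0.13 in RNA and -0.08 in footprints.

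The tail, where many activators bind, had RNA below 0 for 4 of its 5 genes, with a median log2 fold change of -0.24. MED25, bound by the activation domain of ETS-family factors, was 29.6 and 28.4 TPM in ADAR1 siRNA Input and 37.5 and 38.2 TPM in control Input (log2 -0.33 ± 0.08, edgeR adjusted p = 0.0882). MED15, a tail subunit with glutamine-rich stretches, was 56.8 and 53.3 TPM in ADAR1 siRNA Input and 63.1 and 66.6 TPM in control Input, and its footprints were 11.2 and 16.1 TPM after ADAR1 siRNA and 20.4 and 21.3 TPM in control Ribo-seq. Groups were apart in both assays, with ADAR1 siRNA lower, at log2 fold changes of -0.24 ± 0.07 and -0.51 ± 0.17 (edgeR adjusted p = 0.116 and 0.103). MED16 and MED24 were lower in RNA as well, MED24 with a translational efficiency difference of 0.37 ± 0.16 (edgeR adjusted p = 0.201), and MED23 was the exception at a log2 fold change of 0.14.

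The detachable kinase module, which holds Mediator off the polymerase, was represented by MED12, MED13 and their relatives. MED13 was 50.9 and 44.7 TPM in ADAR1 siRNA Input and 40.0 and 40.8 TPM in control Input (log2 0.22 ± 0.07, edgeR adjusted p = 0.139), with footprint groups that overlapped at 2.29 and 3.05 against 3.00 and 2.81 TPM. MED12 was 19.5 and 17.4 TPM in ADAR1 siRNA Input and 19.8 and 20.9 TPM in control Input, and 1.75 and 2.23 against 2.51 and 3.13 TPM in footprints (log2 -0.41 ± 0.19, adjusted p = 0.211). Of MED27 to MED30, which lie between head and tail, MED30 had RNA of 35.8 and 35.0 TPM after ADAR1 siRNA and 46.9 and 43.9 TPM in control Input (log2 -0.37 ± 0.12, edgeR adjusted p = 0.133), while its footprint groups overlapped. Its translational efficiency was 0.999 and 1.11 after ADAR1 siRNA and 0.708 and 0.846 in control cells (log2 0.58 ± 0.18, edgeR adjusted p = 0.099).

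**Figure D3:**
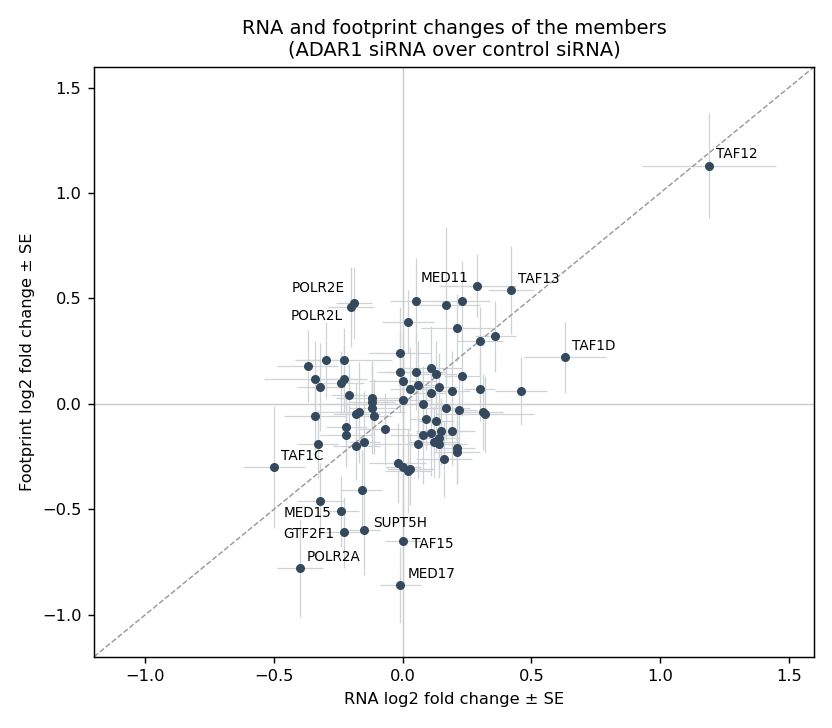
Footprint log2 fold change against RNA log2 fold change (each ± SE from edgeR) of the members tested in both assays, ADAR1 siRNA over control siRNA, with equal change on the dashed line. TAF12 lies on the line at 1.19 and 1.13, MED17 and TAF15 lie below it at RNA values of -0.01 and 0.00, and POLR2E and POLR2L lie above it at footprint values of 0.48 and 0.46.

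Among TFIIA, TFIIB, TFIIE, TFIIF and TFIIH, 12 of 13 genes were tested and 0 passed edgeR's adjusted test in any comparison. At an unadjusted p under 0.05 there were 3 in RNA, 3 in footprints and 0 in translational efficiency, where 25.3%, 24% and 22.7% of all genes were. DESeq2 called 1 in footprints (GTF2F1) and 0 in the others, where it called 3.45% of all genes in RNA, 8.15% in footprints and 7.47% in translational efficiency. Median log2 fold changes were 0.07 in RNA, -0.14 in footprints and -0.18 in translational efficiency. GTF2F1, the large TFIIF subunit that escorts the polymerase to the promoter, had footprints of 23.4 and 34.2 TPM after ADAR1 siRNA and 43.9 and 49.0 TPM in control libraries. Its RNA was 119.1 and 121.7 TPM after ADAR1 siRNA and 145.2 and 134.7 TPM in control Input. The groups were apart in both assays, and the log2 fold change was -0.61 ± 0.17 in footprints (edgeR adjusted p = 0.0688) and -0.23 ± 0.08 in RNA (adjusted p = 0.133); DESeq2 called the footprint difference. The small TFIIF subunit GTF2F2 had RNA of 82.7 and 90.3 TPM after ADAR1 siRNA and 69.0 and 79.5 TPM in control Input, with overlapping footprint groups.

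GTF2B, which is TFIIB and sets the start site, was 52.6 and 46.2 TPM in ADAR1 siRNA Input and 48.7 and 47.6 TPM in control Input. Its footprints were 13.5 and 21.2 TPM after ADAR1 siRNA and 20.7 and 25.0 TPM in control libraries, overlapping groups at a log2 fold change of -0.32 ± 0.20 (edgeR adjusted p = 0.382). In TFIIH, GTF2H4, a core subunit that binds the helicase XPB, was lower in both assays, at 39.1 and 36.3 against 45.5 and 47.8 TPM in Input and 10.8 and 15.2 against 20.2 and 17.8 TPM in Ribo-seq (log2 -0.32 ± 0.09 and -0.46 ± 0.18, edgeR adjusted p = 0.113 and 0.166). GTF2H1, the subunit that TFIIE binds, was higher in RNA at 89.5 and 92.0 against 74.2 and 77.3 TPM (log2 0.23 ± 0.07, adjusted p = 0.126). GTF2H3, a TFIIH core subunit, differed by -0.31 ± 0.19 in translational efficiency (edgeR adjusted p = 0.376). CDK7, the TFIIH kinase, differed by 0.17 ± 0.09 in RNA and -0.02 ± 0.15 in footprints (edgeR adjusted p = 0.293 and 0.957). GTF2H5, the small stabilising subunit, had footprints of 215.3 and 232.3 TPM after ADAR1 siRNA and 201.3 and 170.1 TPM in control libraries (log2 0.36 ± 0.16, adjusted p = 0.199).

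TFIID held 10 of the 29 RNA differences at an unadjusted p under 0.05, among 16 genes tested, 6 of them higher and 4 lower. Of all genes 25.3% had such a p, 11.8% higher and 13.5% lower. In RNA 0 TFIID genes passed edgeR's adjusted test, and DESeq2 called 1 (TAF9B), where it called 3.45% of all genes. The TFIID median log2 fold change was 0.15 in RNA, 0.08 in footprints and 0.05 in translational efficiency. TAF12 (chr1:28602850-28648269) pairs with TAF4 through its histone fold. It had 96 and 122 counts in ADAR1 siRNA Input, against 53 and 40 in control Input. In Ribo-seq it had 130 and 153 counts after ADAR1 siRNA and 56 and 44 in control libraries. In TPM it was 10.8 and 12.7 against 6.11 and 4.31 in Input, and 9.67 and 13.0 against 5.94 and 5.56 in Ribo-seq.

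Both ADAR1 siRNA libraries lay above both control libraries in each assay. Footprints of TAF12 rose by 1.13 ± 0.25 on the log2 scale (edgeR adjusted p = 0.0443). The RNA difference was of like size, 1.19 ± 0.26, and missed the threshold (adjusted p = 0.0796), so that translational efficiency differed by -0.04 ± 0.33 (adjusted p = 0.973). The footprint call held in 8 of 10 alternatives that gave an adjusted p and was lost without control Ribo-seq replicate 1 (1.20, adjusted p = 0.0664) or replicate 2 (1.05, adjusted p = 0.284); over all alternatives the adjusted p ran from 0.00145 to 0.284. The counts are low, and the noncoding gene TAF12-DT overlaps TAF12.

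Other histone-fold TAFs were given by their levels. TAF13, partner of TAF11, was 145.3 and 126.4 TPM in ADAR1 siRNA Input and 103.5 and 97.6 TPM in control Input, and 218.1 and 151.1 against 136.9 and 137.4 TPM in Ribo-seq. TAF11 had footprints of 32.3 and 28.3 TPM after ADAR1 siRNA and 22.6 and 22.1 TPM in control libraries (log2 0.49 ± 0.19, edgeR adjusted p = 0.156). TAF11, TAF12 and TAF13 were thus higher in both ADAR1 siRNA libraries in each assay. Of all genes tested, 29.2% were so in RNA and 23% in footprints, and the share in both was not computed. Neither TAF11 nor TAF13 passed edgeR's adjusted test in RNA or footprints. TAF13 footprints stood at 159.0% and 110.2% of the control mean in ADAR1 siRNA replicates 1 and 2. TAF9, partner of TAF6, had RNA of 230.8 and 217.8 TPM after ADAR1 siRNA and 179.7 and 180.1 TPM in control Input (log2 0.30 ± 0.06, edgeR adjusted p = 0.0767), and its paralog TAF9B had 70.2 and 56.0 against 45.6 and 44.9 TPM. Footprint groups of both overlapped, and TAF9 shares its locus with AK6.

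TAF4, partner of TAF12 and a scaffold of TFIID, lay the other way in RNA, at 18.7 and 16.9 TPM after ADAR1 siRNA and 20.8 and 22.4 TPM in control Input, with footprints of 4.99 and 4.71 against 4.37 and 4.59 TPM. Its translational efficiency was 0.267 and 0.280 after ADAR1 siRNA and 0.210 and 0.205 in control cells (log2 0.54 ± 0.19, edgeR adjusted p = 0.129). TAF6, TAF8 and TAF10 also had lower RNA in both ADAR1 siRNA libraries, and TAF8 differed by 0.38 ± 0.17 in translational efficiency (edgeR adjusted p = 0.217). TBP, the subunit that bends the TATA box, was 31.4 and 29.6 TPM in ADAR1 siRNA Input and 28.5 and 26.9 TPM in control Input, and 13.5 and 14.1 against 16.0 and 17.4 TPM in footprints. Its log2 fold changes were 0.12 ± 0.10 and -0.18 ± 0.17 (edgeR adjusted p = 0.485 and 0.569), with -0.28 ± 0.18 in translational efficiency (adjusted p = 0.399), and TAF1, the largest subunit, had an RNA log2 fold change of 0.00.

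The TAF symbols also cover proteins outside TFIID. TAF5L and TAF6L belong to SAGA, a histone-modifying coactivator; TAF5L had footprints of 4.55 and 5.10 TPM after ADAR1 siRNA and 3.66 and 3.45 TPM in control libraries (log2 0.49 ± 0.20, edgeR adjusted p = 0.176), with overlapping RNA groups and a translational efficiency difference of 0.47 ± 0.20 (adjusted p = 0.188). TAF6L had log2 fold changes of -0.12 ± 0.14 in RNA, 0.03 ± 0.18 in footprints and 0.18 ± 0.21 in translational efficiency (edgeR adjusted p = 0.627, 0.924 and 0.654). TAF1A to TAF1D form SL1, the TBP complex of RNA polymerase I, and their RNA lay on both sides of 0. TAF1D was 105.8 and 71.4 TPM in ADAR1 siRNA Input and 56.0 and 56.3 TPM in control Input (log2 0.63 ± 0.16, edgeR adjusted p = 0.0904). TAF1C was 8.15 and 7.71 TPM in ADAR1 siRNA Input and 10.8 and 11.4 TPM in control Input (log2 -0.50 ± 0.12, adjusted p = 0.0882). Neither was apart in footprints, and TAF1D hosts small nucleolar RNAs and overlaps CEP295, so its Input counts are uncertain.

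TAF15, an RNA-binding protein, had lower footprint values after ADAR1 siRNA that did not pass edgeR's adjusted test. Its RNA was 230.2 and 231.4 TPM after ADAR1 siRNA and 225.4 and 232.5 TPM in control Input. Its footprints were 41.3 and 67.9 TPM after ADAR1 siRNA and 82.3 and 93.2 TPM in control Ribo-seq. Input groups overlapped and footprint groups did not, with ADAR1 siRNA replicate 1 the lowest at 47.1% of the control mean and replicate 2 at 77.3%. The log2 fold change was -0.65 ± 0.18 in footprints (edgeR adjusted p = 0.0689) and -0.62 ± 0.21 in translational efficiency (adjusted p = 0.113), and DESeq2 called both.

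Of the elongation genes, CDK9, the kinase of P-TEFb, was 48.8 and 44.9 TPM in ADAR1 siRNA Input and 52.5 and 55.3 TPM in control Input, and 33.4 and 33.1 against 37.8 and 39.1 TPM in footprints. Its cyclin partner CCNT1 was 27.1 and 26.4 TPM in ADAR1 siRNA Input and 23.6 and 22.6 TPM in control Input. The pair thus had RNA on opposite sides, at log2 fold changes of -0.22 ± 0.08 and 0.19 ± 0.07, neither called (edgeR adjusted p = 0.157 and 0.169). Translational efficiency of CDK9 differed by 0.14 ± 0.16 on the log2 scale (edgeR adjusted p = 0.657). SUPT5H, which encodes SPT5, had footprints of 7.72 and 11.8 TPM after ADAR1 siRNA and 12.7 and 18.6 TPM in control libraries (log2 -0.60 ± 0.21, adjusted p = 0.126), and differed by -0.15 ± 0.06 in RNA and -0.42 ± 0.24 in translational efficiency (edgeR adjusted p = 0.193 and 0.328). SUPT6H, which encodes the histone chaperone SPT6, had RNA of 113.4 and 109.0 TPM after ADAR1 siRNA and 120.8 and 122.6 TPM in control Input (log2 -0.15 ± 0.06, adjusted p = 0.198), with overlapping footprint groups.

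Groups of libraries that do not overlap were common everywhere, so single pairs of ranges say little: in RNA 55 of 81 members (67.9%) were apart, as were 57.1% of all genes tested, with 29 higher and 26 lower where 29.2% and 27.9% of all genes were. In footprints 38 of 80 (47.5%) were apart, against 54.3% of all genes, 13 higher and 25 lower where 23% and 31.2% of all genes were. In translational efficiency 38 of 81 (46.9%) were apart, against 52.4%, 12 higher and 26 lower where 24.5% and 27.9% of all genes were. With 2 libraries a group, the smallest two-sided p of an exact permutation test is 0.333.

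The ADAR1 siRNA libraries differed from each other in footprints. Set against the control mean of the deposited TPM, 15 of 80 members were higher in both ADAR1 siRNA libraries in footprints, 35 lower in both and 30 opposite. In Input 36 of 81 were higher in both, 29 lower in both and 16 opposite. Shares over all genes were not computed. The median footprint ratio on this scale was -0.05 on the log2 scale over all genes and -0.12 over members, while edgeR placed 38 of 80 members above 0. These counts were therefore not read as a fall of the members. The SD of the members' log2 footprint change was 0.42 for ADAR1 siRNA replicate 1 and 0.28 for replicate 2. POLR2A stood at 41.8% and 67.9% of the control mean, GTF2F1 at 50.3% and 73.6%, and POLR2L at 147.8% and 106.8%. Long members were low and short ones high chiefly in ADAR1 siRNA replicate 1. Pearson's r of its log2 footprint change with log2 relative length behind the Ribo-seq TPM was -0.56 over 80 members and -0.20 over 11102 genes. ADAR1 siRNA replicate 2 had -0.27 and 0.06. For control replicate 1 over control replicate 2, r was -0.19 over members and -0.02 over all genes. These correlations are across genes measured in the same libraries and are descriptions, and the part of length in the changes above was not tested.

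**Figure D4:**
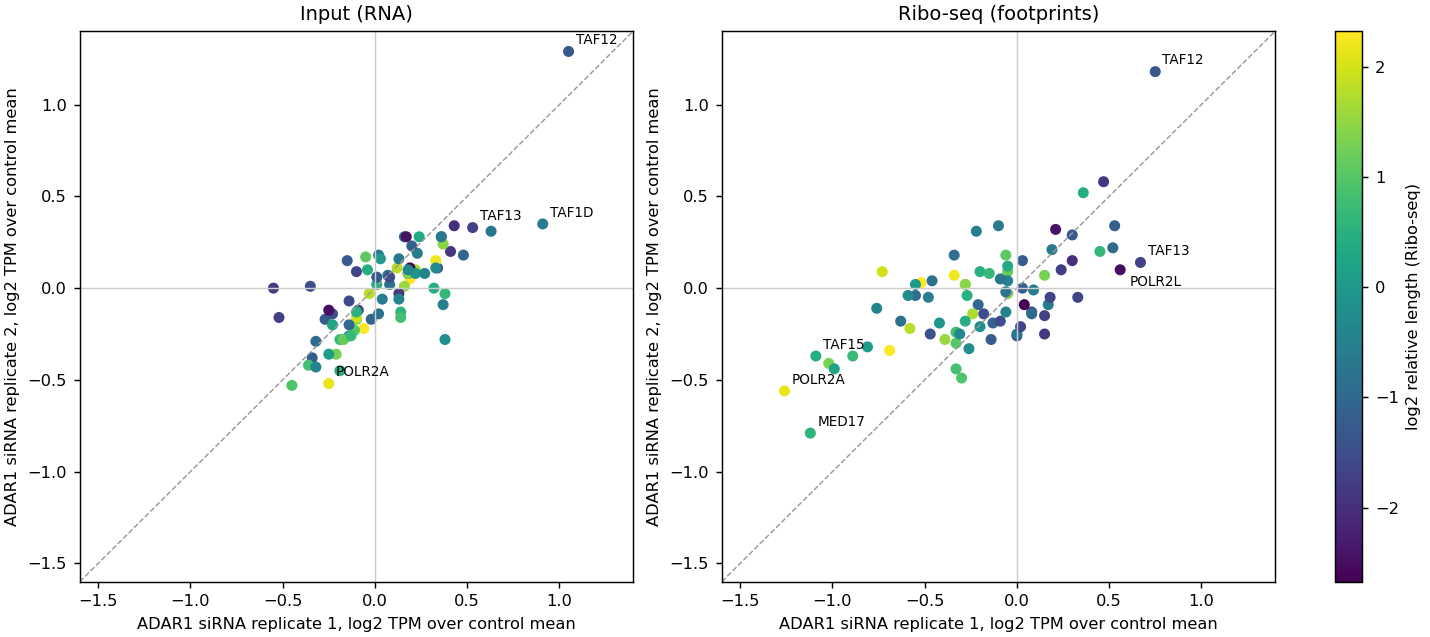
Log2 TPM over the control mean in ADAR1 siRNA replicate 1 (horizontal) and replicate 2 (vertical) for each member, Input left and Ribo-seq right, coloured by log2 relative length behind the Ribo-seq TPM, with equality on the dashed line. TAF12 is high in both libraries of both assays (0.75 and 1.18 in Ribo-seq), and POLR2A, MED17 and TAF15 reach -1.26, -1.12 and -1.09 in Ribo-seq replicate 1 but -0.56, -0.79 and -0.37 in replicate 2.

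The level of translational efficiency, the authors' ratio of Ribo-seq TPM to Input TPM, spread widely among the members. Over the 80 members with a mean of at least 50 counts in control Input, the median was 0.504 after ADAR1 siRNA and 0.579 in control cells, and over 10997 genes it was 0.344 and 0.365. In control cells the lowest were MED12L (0.0265), MED13L (0.0539), MED13 (0.0719), SUPT6H (0.0732) and POLR2A (0.0849). The highest were GTF2H5 (31.0), POLR2F (15.1), POLR2L (12.3) and MED28 (6.14). By role, the control median was 2.46 for the shared polymerase subunits, 1.46 for the Mediator head, 0.997 for the polymerase's own subunits, 0.816 for the Mediator middle, 0.321 for the tail, 0.295 for TFIID and 0.0629 for the kinase module. POLR2A therefore lay far from its partners, at 0.0632 and 0.107 in the control libraries where POLR2B was at 0.282 and 0.289 and POLR2C at 1.02 and 0.973.

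Longer members had lower ratios. The log2 control ratio had Pearson's r of -0.84 with the log2 relative Ribo-seq length over 80 members, and -0.72 over 11102 genes. That length is a divisor of the Ribo-seq counts within the ratio itself. A negative correlation is therefore partly built in and is not a result about translation. The lengths behind the TPM differed between the assays, and the order of the members by ratio depends on them. Relative to the median gene, POLR2A had 2.15 in Input and 4.46 in Ribo-seq, GTF2H5 had 2.39 and 0.186, and MED28 had 3.46 and 0.427. No source used here states which transcript features gave the lengths, and the part of length in the levels was not tested.

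**Figure D5:**
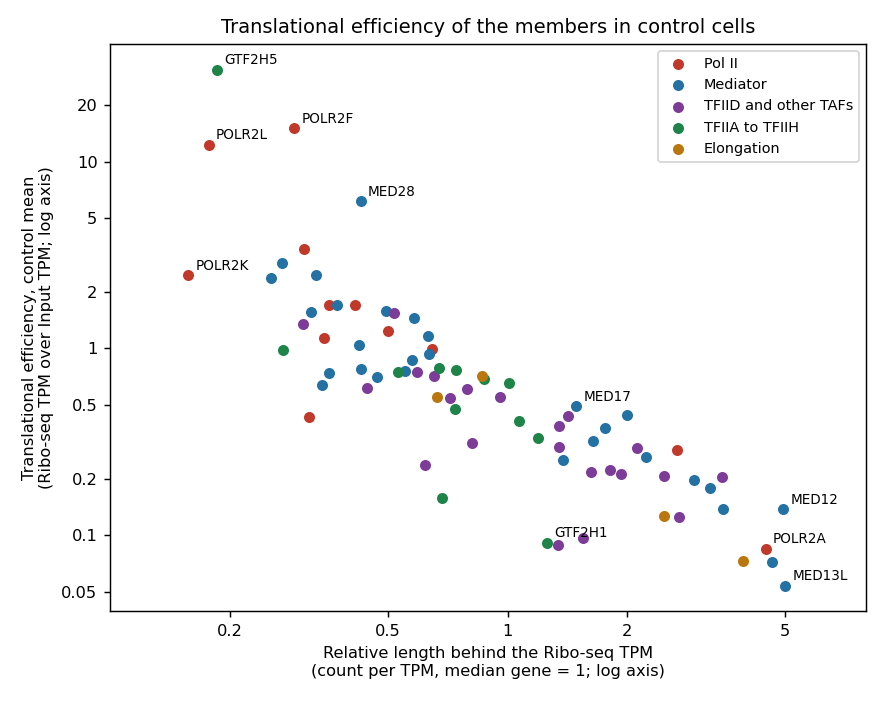
Control mean of translational efficiency (Ribo-seq TPM over Input TPM) against relative length behind the Ribo-seq TPM for members with both values, log axes, coloured by complex. Short subunits such as GTF2H5 (31.0), POLR2F (15.1) and POLR2L (12.3) lie at the upper left and long ones such as MED13L (0.0539) and POLR2A (0.0849) at the lower right. The length on the horizontal axis is also a divisor within the ratio, so part of the slope is built in.

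A further 87 genes were in 9 lists of kinase partners, remaining TFIIH subunits, pausing factors, elongation complexes and polymerase assembly factors. The lists also covered TBP regulators, Integrator and the own subunits of RNA polymerases I and III. Of the 87, edgeR called 0 in RNA, 1 in footprints and 0 in translational efficiency, against 0.253%, 3.54% and 0.0463% of all genes. At an unadjusted p under 0.05 there were 26, 23 and 24 (25.3%, 24% and 22.7% of all genes). DESeq2 called 1, 4 and 6 (3.45%, 8.15% and 7.47% of all genes). POLR1E, a subunit of RNA polymerase I, was the one called: its footprints were 19.0 and 22.4 TPM after ADAR1 siRNA and 35.3 and 37.6 TPM in control libraries, and they fell by 0.73 ± 0.15 on the log2 scale (edgeR adjusted p = 0.0428). The call was lost without either control Ribo-seq library (log2 -0.76 and -0.70; adjusted p = 0.13 and 0.381), and over all alternatives the adjusted p ran from 2.06e-05 to 0.381. Its RNA groups overlapped at 93.7 and 98.9 against 98.7 and 102.1 TPM. The 18 own subunits of polymerases I and III had a median footprint log2 fold change of -0.28, with 8 at an unadjusted p under 0.05, all of them lower, where 11.3% of all genes were lower and 12.7% higher at that p. The 14 Integrator genes, whose complex cleaves nascent RNA, also had a median of -0.28, whereas the 12 subunits of RNA polymerase II had 0.13 and all genes tested 0.05; these differences between lists were not tested.

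CCNC, the cyclin of the Mediator kinase module, had RNA of 80.2 and 65.8 TPM after ADAR1 siRNA and 52.5 and 55.2 TPM in control Input (log2 0.42 ± 0.09, edgeR adjusted p = 0.0804). RPAP2, a phosphatase of the polymerase tail that also serves its assembly, had RNA of 46.0 and 38.4 against 28.7 and 29.4 TPM (log2 0.45 ± 0.08, adjusted p = 0.0672). RPAP3, which helps assemble the polymerase, had the lowest adjusted p in translational efficiency among these genes, with footprints of 5.56 and 7.43 against 9.63 and 9.88 TPM while RNA was 61.8 and 59.5 against 48.7 and 48.0 TPM (log2 -0.78 ± 0.16, adjusted p = 0.0552). DRAP1, a repressor that binds TBP with DR1, had footprints of 271.9 and 382.2 TPM after ADAR1 siRNA and 224.7 and 215.6 TPM in control libraries (log2 0.65 ± 0.16, adjusted p = 0.0505). CTR9 of the PAF1 complex had footprints of 3.03 and 4.44 against 5.50 and 7.43 TPM (log2 -0.69 ± 0.21, adjusted p = 0.0816). None of these 5 passed edgeR's adjusted test, but DESeq2 called RPAP2 in RNA, DRAP1 and CTR9 in footprints, and DRAP1 and RPAP3 in translational efficiency; the DRAP1 footprint difference was called in 8 of 11 alternatives (adjusted p 2.41e-06 to 0.535).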

How the data were processed

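RNA-seq (Input) and Ribo-seq libraries of MDA-MB-231 cells, 2 per group, were grouped by their titles. Per the submitters' processing notes, cutadapt, Bowtie2, STAR and featureCounts were used with GRCh38 (hg38); their versions and settings, and the strand of counting, are not given in the sources. The authors deposited 1 table with estimated counts per gene, not normalized and partly fractional, TPM per gene and library, and translational efficiency as a ratio of Ribo-seq TPM to Input TPM between libraries that share siRNA and number.

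Symbols were found for 19669 of 19892 gene numbers. Estimated counts were rounded and tested with edgeR 4.0.16 (limma 3.58.1, R 4.3.3): TMM, filterByExpr, two-sided quasi-likelihood tests, Benjamini-Hochberg adjustment over all genes tested, threshold 0.05. RNA and footprints were fitted on 4 libraries each, translational efficiency on 8 as the assay-by-siRNA interaction, with no block. A standard error is the log2 fold change over the root of F. Overlap of groups was judged on deposited TPM or ratios. Scripts were tested on simulated counts. Alternatives were upper-quartile and RLE scaling, no filter, a mean count of at least 50, DESeq2 1.42.0, a replicate block, 1 fit of all libraries and leaving out each library. Intervals and tests cover counting error and the spread between libraries only; the labels mention no molecular identifiers.

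Members, roles and lists were chosen with earlier results of these data known, and lists were described, not tested. Members chosen for test values were called members, the 2 of smallest p in each role, and POLR2A, TBP, GTF2B, MED1, CDK7, CDK9, CCNT1, SUPT5H and SUPT6H; for the lists around them, called genes or else the gene of smallest p, of which 1 is not reported here. Values of members so chosen that are not printed had an edgeR adjusted p of 0.223 or more. Values printed beside these for RNA of MED17, translational efficiency of TAF12, and other members given by a log2 fold change alone were chosen after they were seen. Relative length is the count divided by the TPM, set to 1 for the median gene. Promoter sequences and coordinates are from RefSeq (GRCh38.p14); 67 member genes had a promoter entry.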

Additional observations from a re-analysis of the deposited data

How the results depend on the processing

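In RNA, where 0 members were called, DESeq2 called 3 (TAF9B and TAF1D higher, POLR2A lower; 3.45% of all genes), the replicate block called 8 (8.66% of all genes), and leaving out 1 library gave 0 to 45: 36 when ADAR1 siRNA Input replicate 1 was left out and 45 when replicate 2 was, where 31.9% and 42.1% of all genes were called, and 0 without either control. In footprints, where 2 were called, no count filter gave 11 (10.9% of all genes), DESeq2 5 (8.15%), the replicate block 12 (17.5%), all 8 libraries in 1 fit 10 (14.9%), and leaving out 1 library 0 to 23, with 0 without control replicate 2, 6 without ADAR1 siRNA replicate 1 (15.3%) and 23 without replicate 2 (28.1%). DESeq2 gave TAF12 no adjusted p. In translational efficiency, where 0 were called, no count filter gave 2 (POLR2E, MED17; 5.04% of all genes), DESeq2 3 (7.47%) and the replicate block 3 (9.02%; POLR2E higher, TAF15 and MED17 lower in both), and leaving out 1 library 0 to 11, with 11 without ADAR1 siRNA Ribo-seq replicate 2 (16.9%). With 1 library left in a group, that library is assumed to vary like the other group. Upper-quartile and RLE scaling and a mean count of at least 50 left these counts as they were. The cause of these moves was not tested. Same-numbered libraries of the 2 siRNAs had deviations correlated at 0.03 in Input and 0.061 in Ribo-seq. Between Input and Ribo-seq of the same number the correlation was 0.39 for ADAR1 siRNA and 0.005 for control. Same-numbered ADAR1 siRNA libraries of the 2 assays thus shared part of their deviations, yet the main tests did not take the numbers as pairs. For translational efficiency the replicate block is the fit that pairs them. No called member changed sign under any alternative run. Scaling moved the footprint median of all genes between 0.01 and 0.09 on the log2 scale. Depth limits TAF12, with 40 to 153 counts per library, more than MED17.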
